A study of Bos indicus with 9 samples.

Results

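Immediate early genes are transcribed within minutes of a hormone, growth factor or stress signal, without new protein synthesis, and most of their products are transcription factors that pass the signal on to slower genes. FOS and FOSL2 pair with JUN or JUNB to form the dimeric factor AP-1, and ATF3 belongs to the same leucine zipper superfamily. EGR1 and KLF4 are zinc finger factors, NR4A1 is an orphan nuclear receptor, MYC drives growth, and DUSP1 is a phosphatase that switches the MAP kinases off again. In the ovary such genes respond to gonadotropins around ovulation and to prostaglandin F2 alpha when the corpus luteum regresses, and they are also induced by tissue handling.

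The set described here holds these 10 genes, taken by symbol from the array's probe annotation, with every probe set that the annotation gives to each. A probe set is a group of short oligonucleotides on the array that together report 1 transcript. The genes have 18 probe sets among the 23926 tested, of which 5 belong to JUN, 3 to FOSL2, 2 each to FOS and EGR1, and 1 to each other gene. All 18 have a value on all 9 arrays, and no filter on low signals was applied. Where 1 probe set has to stand for a gene, it is the one with the highest mean over the 9 arrays.

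The arrays hold corpora lutea, the progesterone-secreting glands of the ovary, from 9 crossbred Nelore cows (Bos indicus) aged 2 to 5 years, 1 array per cow and 3 cows per group. All cows were synchronised with progesterone devices and estradiol benzoate and slaughtered on day 6 after ovulation. Control cows received nothing more. The treated cows were given eCG, the equine chorionic gonadotropin, which acts on the bovine ovary: stimulated cows 400 IU on day 8 and superovulated cows 2000 IU on day 4 of the protocol. Dose and day of eCG changed together, so they cannot be told apart, and both treated groups are set against the same 3 control cows. The values are tissue levels, in which fewer cells of a type and less RNA per cell cannot be told apart. The labels call the replicates biological and give no array date or batch.

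Signals are on a log2 scale, so a difference of 1 is a doubling, and the genes are not ranked by abundance, since probe sets differ in how brightly they report a transcript. The median probe set has a mean of 4.22. The tissue label was borne out by luteal markers, with STAR at 14.55 to 14.84, CYP11A1 at 13.92 to 14.30 and HSD3B1 at 14.21 to 14.57 over the 9 arrays. Superovulated replicate 2 stood apart from the other 8 arrays in several members and in markers of connective tissue and epithelium, as described below, so results that rest on it are given with and without it.

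None of the 10 genes passed the test in any comparison, which was limma with Benjamini-Hochberg adjustment over all 23926 probe sets and a threshold of 0.05. The member nearest to passing was ATF3, which was higher in all 3 superovulated animals than in all 6 others. JUN had higher signal in stimulated than in control animals on 4 of its 5 probe sets, KLF4 had its highest group mean in superovulated animals, and NR4A1 its lowest in stimulated animals. FOS, EGR1, JUNB, MYC and DUSP1 had their highest signal in a single animal, superovulated replicate 2.

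**Figure D1:**
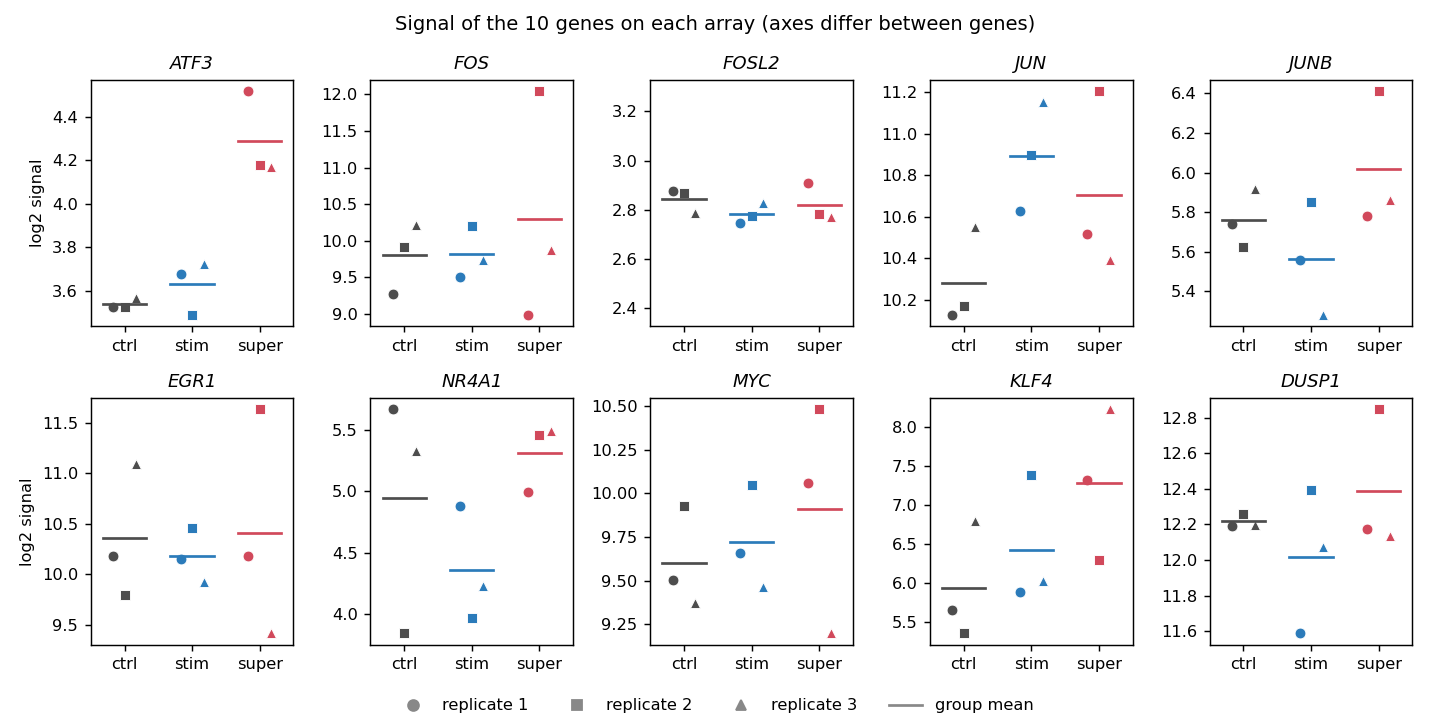
The log2 signal of the brightest probe set of each of the 10 genes is plotted for every array, by group, with the marker shape giving the replicate number and a line giving the group mean. ATF3 is high in all 3 superovulated animals, while FOS, JUNB, EGR1, MYC and DUSP1 each have 1 high superovulated animal, replicate 2.

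ATF3 is a repressor or activator, depending on its partner, that is induced by many stresses. It is read by 1 probe set. Its signal was 3.52, 3.53 and 3.57 in control replicates 1 to 3, 3.68, 3.49 and 3.72 in stimulated replicates 1 to 3, and 4.52, 4.18 and 4.17 in superovulated replicates 1 to 3. The superovulated values lay above every other value; control and stimulated values overlapped. Its mean signal exceeded that of 45.6% of probe sets.

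Between superovulated and control animals, ATF3 differed by a log2 fold change of 0.75 (SE 0.11, 95% confidence interval 0.49 to 1.0), or 1.68-fold. By unadjusted p it ranked 7 of 23926 probe sets, and it did not pass (adjusted p = 0.490 by limma). Against stimulated animals the log2 fold change was 0.66 (SE 0.11, interval 0.40 to 0.91, adjusted p = 0.267 by limma), at rank 32. Stimulated animals differed from control by 0.09 (SE 0.11, interval -0.16 to 0.34, adjusted p = 0.918 by limma). Leaving out any single array kept the superovulated value between 0.63 and 0.81 against control, and between 0.54 and 0.72 against stimulated animals. Without superovulated replicate 2 it was 0.80 and 0.71, so the ATF3 difference was as large without that animal.

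The genes whose signal followed ATF3 most closely over the 9 arrays, among 6356 other genes with a mean above the median probe set, were CFL2, which encodes a muscle form of cofilin (Pearson's r = 0.97, Spearman's rho = 0.95), CCNC, which encodes cyclin C (r = 0.96, rho = 0.75), and PPP2R1A, a scaffold subunit of protein phosphatase 2A (r = 0.91, rho = 0.77). These were picked as the highest of many on arrays that include the high superovulated group, so they carry no test.

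FOS, the partner of JUN in AP-1, is read by a bright and a dimmer probe set. On the bright one the signal was 9.27, 9.91 and 10.22 in control, 9.51, 10.20 and 9.74 in stimulated, and 8.99, 12.05 and 9.87 in superovulated animals, in replicate order. The superovulated group thus held both the lowest and the highest of the 9 values. On the dimmer one superovulated replicate 2 stood at 8.16 and the other 8 animals between 3.81 and 4.85. Both probe sets place the same animal at the top and superovulated replicate 1 at the bottom, but they belong to 1 gene and are not separate evidence.

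With that spread no group difference in FOS could be seen. The log2 fold change of superovulated against control animals was 0.50 (SE 0.70, adjusted p = 0.933 by limma) on the bright probe set, and its interval ran from -1.12 to 2.12. Without superovulated replicate 2 it was -0.37 (SE 0.37), and on the dimmer probe set the value went from 0.88 to -0.51. Without superovulated replicate 1, the lowest animal, the values were 1.16 on the bright and 1.67 on the dimmer probe set. Stimulated against control animals had 0.01 (SE 0.70) on the bright probe set, -0.25 without control replicate 1 and 0.22 without control replicate 3.

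FOSL2, another FOS-family partner of JUN, was dim on all 3 of its probe sets, whose means of 1.87 to 2.82 lie above only 2.54% to 27.7% of probe sets. Over the 9 arrays its brightest probe set ran from 2.75 in stimulated replicate 1 to 2.91 in superovulated replicate 1. The 9 log2 fold changes of its probe sets over the comparisons lay between -0.06 and 0.10, at adjusted p values of 0.723 to 0.984 by limma. At this signal a change in FOSL2 transcript may not be detectable on the array.

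JUN, the central AP-1 subunit, is read by 5 probe sets that differ widely in brightness. On the brightest the signal was 10.13, 10.17 and 10.55 in control, 10.63, 10.90 and 11.15 in stimulated, and 10.52, 11.21 and 10.39 in superovulated animals. All 3 stimulated animals lay above all 3 controls, and the superovulated animals overlapped both groups. The log2 fold change of stimulated against control animals was 0.61 (SE 0.24, interval 0.06 to 1.16), or 1.53-fold, with an unadjusted p under 0.05 that did not pass (adjusted p = 0.770 by limma).

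The other JUN probe sets show how far this holds within the gene. The log2 fold changes of stimulated against control animals were 0.29 (SE 0.18), 0.77 (SE 0.32) and 0.40 (SE 0.36) from the second brightest down, again with no overlap between the groups. The fifth probe set, at a mean of 2.16 near the dim end of the array, had -0.02 and overlapped. Since the 5 probe sets read the same gene in the same animals, 4 that move alike count as 1 gene.

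Superovulated against control animals, JUN had 0.42 (SE 0.24, adjusted p = 0.836 by limma) on the brightest probe set and 0.05 to 0.72 on the others. Without superovulated replicate 2 the brightest had 0.17 (SE 0.19) and the others 0.02 to 0.29. The 2 treated groups differed in JUN by -0.19 (SE 0.24, interval -0.74 to 0.36), so the higher value against control in stimulated animals is not a shown difference between the treatments.

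JUNB, which often restrains JUN, had 5.74, 5.62 and 5.92 in control, 5.56, 5.85 and 5.28 in stimulated, and 5.78, 6.41 and 5.86 in superovulated animals. Superovulated replicate 2 was again the highest, and the other superovulated animals lay inside the control range. Superovulated animals exceeded stimulated ones by 0.45 on the log2 scale (SE 0.20), which did not pass (adjusted p = 0.529 by limma), and the difference was 0.26 (SE 0.17) without superovulated replicate 2.

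**Figure D2:**
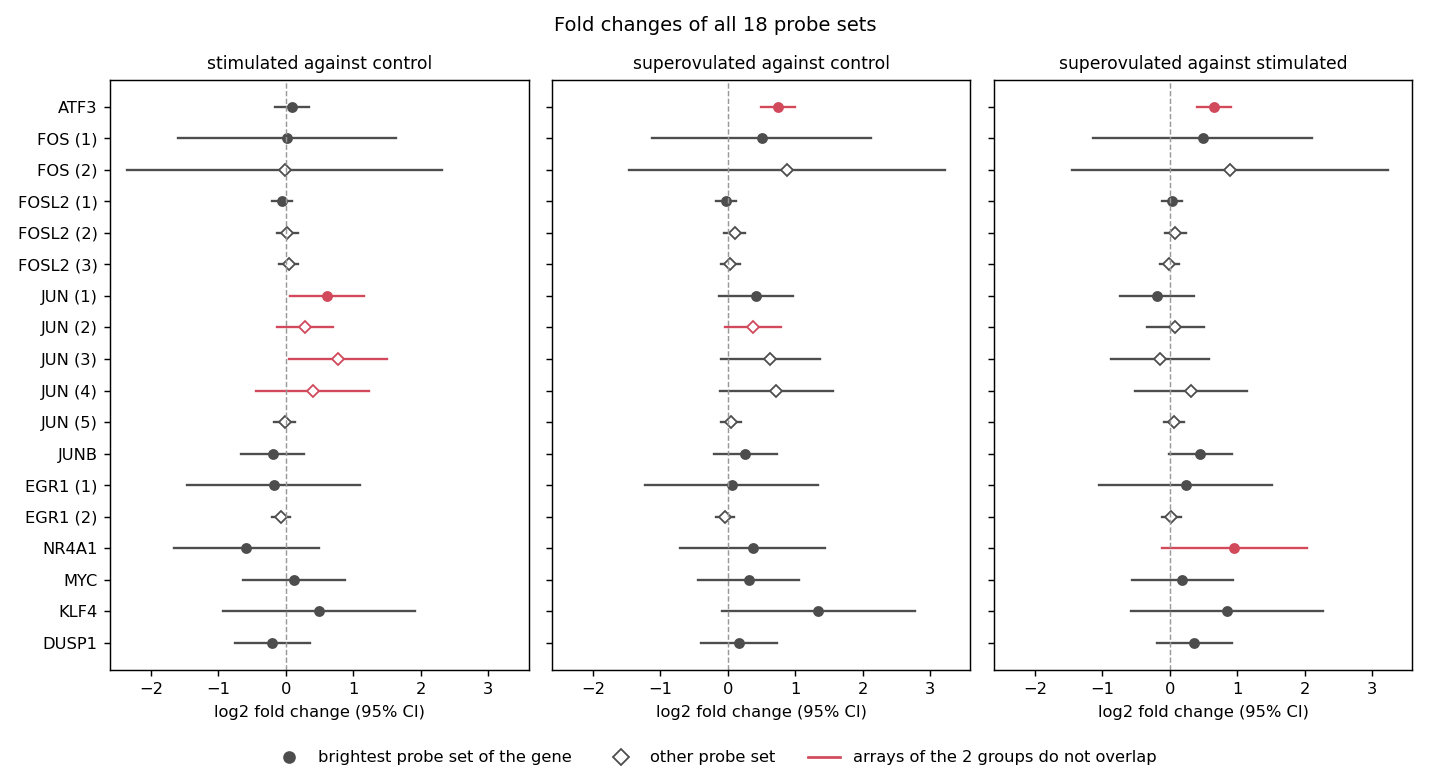
Log2 fold changes with 95% confidence intervals are plotted for all 18 probe sets in the 3 comparisons, numbered from the brightest within a gene, with red marking probe sets whose 2 groups of arrays do not overlap. The intervals of ATF3 lie above 0 in both comparisons of superovulated animals, and 4 of the 5 JUN probe sets are red in stimulated against control animals.

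EGR1 is a target of LH receptor and growth factor signals. Its bright probe set had 10.18, 9.79 and 11.09 in control, 10.15, 10.46 and 9.92 in stimulated, and 10.18, 11.63 and 9.41 in superovulated animals. As with FOS, the superovulated group held both ends of the range, which was 2.22 wide. The log2 fold changes were -0.18 for stimulated and 0.06 for superovulated against control animals (SE 0.55 for both, adjusted p = 0.974 and 0.995 by limma). The latter was -0.56 without superovulated replicate 2, -0.23 without control replicate 2 and 0.55 without superovulated replicate 3. The stimulated value was 0.19 without control replicate 3, the highest control animal, and -0.46 without control replicate 2. The second EGR1 probe set had a mean of 1.87, with 2.60% of probe sets below it, and log2 fold changes from -0.07 to 0.03.

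NR4A1, also called NUR77, is induced in steroidogenic cells by LH and by prostaglandin F2 alpha. Its signal was 5.67, 3.84 and 5.33 in control, 4.88, 3.97 and 4.23 in stimulated, and 5.00, 5.46 and 5.49 in superovulated animals. Every superovulated value lay above every stimulated value, but the control group alone spanned the whole range of the 9 arrays, from 3.84 to 5.67. The log2 fold change of superovulated against stimulated animals was 0.96 (SE 0.47, interval -0.12 to 2.04), or 1.94-fold, with an adjusted p = 0.564 by limma. Against control it was -0.59 (SE 0.47) for stimulated and 0.37 (SE 0.47) for superovulated animals. Without control replicate 2 these were -1.14 and -0.18, and without control replicate 1 they were -0.22 and 0.73.

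KLF4, a zinc finger factor that restrains the cell cycle and also marks smooth muscle and endothelial responses to stress, had the widest range after FOS. Its signal was 5.65, 5.35 and 6.80 in control, 5.88, 7.38 and 6.02 in stimulated, and 7.32, 6.30 and 8.22 in superovulated animals. The groups overlapped in each comparison, superovulated and control animals only through superovulated replicate 2, at 6.30 against a highest control value of 6.80. Superovulated against control animals, the log2 fold change of 1.34 (SE 0.62, interval -0.08 to 2.77, adjusted p = 0.809 by limma) was the highest of the 10 genes. In contrast to FOS and EGR1, KLF4 was not high in superovulated replicate 2, and without that animal the value was 1.84 (SE 0.60, adjusted p = 0.899 by limma, against 0.634 to 0.989 over the other alternatives). Without superovulated replicate 3 it was 0.87.

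MYC, which controls ribosome production and growth, had 9.5, 9.93 and 9.37 in control, 9.66, 10.05 and 9.47 in stimulated, and 10.06, 10.48 and 9.20 in superovulated animals. The superovulated group again held both ends of the range. Its log2 fold changes were 0.12 and 0.31 for stimulated and superovulated against control animals (SE 0.32 for both, adjusted p = 0.969 and 0.907 by limma), and 0.19 between the treated groups. The superovulated value without replicate 2 of that group was 0.02 against control and -0.10 against stimulated animals, and without stimulated replicate 2 the stimulated value was -0.04 against control. Without superovulated replicate 3 the superovulated values were 0.67 and 0.54, and without control replicate 2 the stimulated value was 0.28. The animal numbered 2 was the highest of its group in all 3 groups.

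DUSP1, which removes the activating phosphates from p38, JNK and ERK, was the brightest member, above 96.9% of probe sets. Its signal was 12.19, 12.26 and 12.20 in control, 11.59, 12.39 and 12.07 in stimulated, and 12.18, 12.85 and 12.13 in superovulated animals. The control animals lay close together, while stimulated replicate 1 was the lowest and superovulated replicate 2 the highest. The log2 fold changes against control were -0.20 in stimulated and 0.17 in superovulated animals (SE 0.24 for both, adjusted p = 0.919 and 0.934 by limma). Without stimulated replicate 1 the former was 0.02, and without superovulated replicate 2 the latter was -0.06. The former was -0.39 without stimulated replicate 2, and the latter 0.29 without superovulated replicate 3. As with MYC, the animal numbered 2 was the highest of each group.

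The closest genes to DUSP1 over the 9 arrays were CAMSAP1, which binds microtubule ends (r = 0.98, rho = 0.95), P3H1, a collagen prolyl hydroxylase (r = 0.97, rho = 0.93), and COL3A1, a fibrillar collagen (r = 0.96, rho = 0.78). Without superovulated replicate 2, r was 0.96, 0.93 and 0.92. Here and below, the genes were picked as the highest of many on the same arrays, so these values carry no test. For KLF4 the closest were LIMS2, a focal adhesion protein (r = 0.92, rho = 0.95), CSN2, annotated as beta-casein (r = 0.90, rho = 0.82), and RTF1, a subunit of the PAF elongation complex (r = 0.90, rho = 0.83). For JUN they were KRR1, a ribosome assembly factor (r = 0.96, rho = 0.97), EVL, an actin regulator (r = 0.88, rho = 0.87), and the locus LOC100174924 (r = 0.87, rho = 0.80).

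The likeness to FOS leaned on superovulated replicate 2. Its closest genes were PCID2, SELENBP1 and RBBP8, each with r = 0.93 over 9 arrays, and r was 0.63, 0.71 and 0.72 without that animal. The closest to JUNB was IL4R, the interleukin 4 receptor (r = 0.95, 0.87 without it), and to EGR1 the ubiquitin ligase RNF135 (r = 0.92, 0.82 without it). For MYC it was APOLD1, an endothelial early response gene (r = 0.96, 0.93 without it), and for NR4A1 the mitochondrial protease PARL (r = 0.92, 0.92 without it). The dim FOSL2 signal was closest to IFRD1 (r = 0.88, 0.90 without it). All of these genes were picked on the 9 arrays, so r without that animal is no test of the likeness.

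The counts over the members were read against those over all probe sets. In stimulated against control animals, 0 of the 18 member probe sets passed with adjustment by limma (0.00418% of all probe sets did), 2 had an unadjusted p under 0.05 (6.4% of all), and 4 had groups that did not overlap (11.5% of all). Those 2 and those 4 were JUN probe sets. In superovulated against control animals, 0 passed (0% of all), 1 had an unadjusted p under 0.05 (6.21% of all), and 2 did not overlap (10.9% of all). The first was ATF3 and the second pair was ATF3 and a JUN probe set. In superovulated against stimulated animals, 0 passed by limma (0.00418% of all), 1 had an unadjusted p under 0.05 (9.64% of all), and 2 did not overlap (13.5% of all), ATF3 and NR4A1. In the moderated F test of any difference among the 3 groups, 0 passed (0.00418% of all) and 1, ATF3, had an unadjusted p under 0.05 (adjusted p = 0.274 by limma), against 7.69% of all. The share of member probe sets with an unadjusted p under 0.05 was thus 11.1% in the first comparison and 5.56% in each of the others, the first resting on 1 gene and the others below the background.

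Signs of some fold changes turned when 1 animal was left out. In superovulated against control animals 9 of the 10 genes were positive, with a median log2 fold change of 0.34, where the median over all 9126 genes was 0.01 and 53.2% were positive. Without superovulated replicate 2, a comparison added after the data were seen, 6 were positive and the median was 0.04. Against stimulated animals 9 were positive with a median of 0.41, and 6 with a median of 0.10 without that animal. In stimulated against control animals 5 were positive and the median was -0.02. Superovulated replicate 2 was singled out because it was the highest for 6 of the 10 genes. Leaving it out was thus bound to lower the superovulated values of those genes, and the medians were not recomputed without other arrays. Over all member probe sets and comparisons, 10 values changed sign without it, and 2 to 4 without each other array.

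Superovulated replicate 2 had the highest signal of the 9 arrays for 6 of the 10 genes, FOS, JUN, JUNB, EGR1, MYC and DUSP1, where over all genes 15.6% had it there. This count was chosen after the values were seen. Its excess over the median of the other 8 animals was 2.24 in FOS, 1.47 in EGR1, 0.90 in MYC, 0.67 in JUN, 0.66 in DUSP1 and 0.65 in JUNB. Over all 9126 genes the median excess was 0.00085 and 3.13% exceeded 1, the highest such share of any array, with the others between 0.745% and 1.76%. KLF4 and FOSL2, at -0.11 and -0.03, did not share it, and ATF3 and NR4A1, at 0.56 and 0.52, were exceeded by at least 1 other animal.

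Other immediate early genes were high in the same animal. Of 28 measured genes on a companion list of 47 symbols, 17 had their highest signal there. CXCL8, a chemokine that attracts neutrophils, stood at 6.52 against 2.42 to 3.61 in the other 8 animals, and ZFP36, an RNA-binding protein that speeds decay of cytokine transcripts, at 7.08 against 4.98 to 5.75. PLAUR, the urokinase receptor, had 10.21 against 8.33 to 9.13. CCN1, a matrix protein induced by serum, had 12.67 against 10.85 to 11.68, and the EGF-family ligand AREG had 4.38 against 2.30 to 3.59. IER2 and NR4A2, a further nuclear receptor of the NR4A family, exceeded the next animal by 0.46 and 0.24. In contrast, ID2, an inhibitor of helix-loop-helix factors, and GADD45B, a stress sensor, were lower there than in any other animal, at 12.81 and 10.64.

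**Figure D3:**
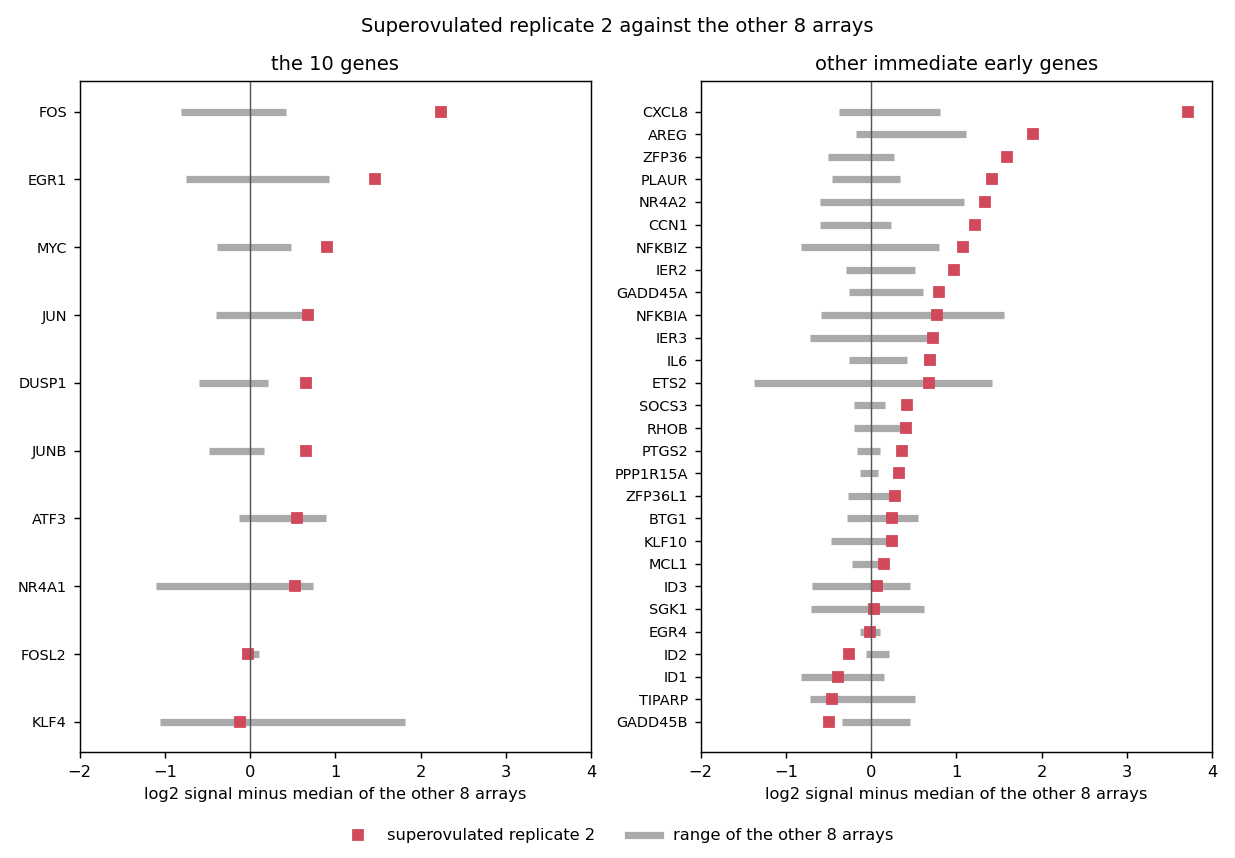
For each of the 10 genes and each of 28 other immediate early genes, the square gives the log2 signal of superovulated replicate 2 minus the median of the other 8 arrays, and the grey bar the range of those 8. FOS has the largest excess of the 10 genes at 2.24, while KLF4, FOSL2, ATF3 and NR4A1 lie within the range of the other arrays.

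Markers of other tissue components were high in this animal too. All 6 fibroblast markers had their highest signal there, with the list's mean at 12.00 against 10.47 to 11.37 in the others, and PDGFRA, the receptor that defines many stromal fibroblasts, at 11.14 against 6.09 to 9.25. Of 7 pericyte and smooth muscle markers 5 were highest there, with a list mean of 9.66 against 8.56 to 9.52. Of 7 markers of surface epithelium and oviduct 3 were highest there, and the list mean was 4.09 against 3.11 to 3.35. These were the keratins KRT18, at 8.79 against 4.46 to 5.77, KRT19, at 5.03 against 2.39 to 2.61, and the dim KRT8, at 2.12 against 1.76 to 2.03. CDH1 was at 4.18 and MUC1 at 3.06, within the other animals' range. So were EPCAM at 2.5 and OVGP1 at 2.97, near the dim end. The higher list mean thus rested on KRT18 and KRT19. Of the 8 steroidogenic markers 0 were highest there and 4 were the lowest of the 9 arrays, STAR at 14.55, CYP11A1 at 13.92, HSD3B1 at 14.21 and FDX1 at 14.65, while the list mean was 12.35 against 12.33 to 12.73. The part of these components in the members' values was not tested.

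Markers that differed between groups are given beside the group differences of the members. The mean of 8 macrophage markers ran from 5.51 to 6.75 in control, from 7.36 to 8.59 in stimulated and from 7.02 to 8.13 in superovulated animals. That of 4 neutrophil markers ran from 6.28 to 7.16, from 4.61 to 5.32 and from 6.43 to 6.87 in the same order. These markers did not move alike. S100A8, S100A9 and MMP9 were lower in stimulated than in control animals without overlap. MMP9 was also lower in superovulated animals, at 3.06 to 3.35 against 3.76 to 4.58 in control. CXCR1 was dim, at 2.47 to 3.19 over the 9 arrays. The mean of 7 T and NK cell markers ran from 2.96 to 3.50, from 3.49 to 4.49 and from 3.04 to 3.55 in the same order. The animals with high JUN in the stimulated group were thus also those with more macrophage signal than any control, as were the superovulated animals, and their part in the JUN values was not tested. Fibroblast markers ran from 11.11 to 11.25 in control, 10.47 to 11.37 in stimulated and 10.94 to 12.00 in superovulated animals. Endothelial markers ran from 6.36 to 7.27, 6.83 to 7.23 and 6.69 to 6.92, and erythroid markers from 2.71 to 2.93, 2.70 to 2.87 and 2.52 to 2.91. The difference between 3' and 5' probe sets of the glutathione S-transferase transcript, a sign of RNA integrity, ran from -0.73 to -0.37 in control, -0.78 to -0.30 in stimulated and -0.20 to -0.10 in superovulated animals. The superovulated animals thus lay above all others both in ATF3 and in this measure, whose part in the ATF3 value was not tested. The same difference for cyclophilin ran from 0.14 to 0.18 in control, 0.24 to 0.32 in stimulated and 0.23 to 0.31 in superovulated animals, so that stimulated and control animals did not overlap in it, as in JUN, and its part in the JUN value was not tested. Superovulated replicate 2 had the lowest value of the 9 arrays for actin, at -0.64, and the highest for eIF-4E, at 3.04, where the others had 2.68 to 2.97. Over all animals GAPDH ran from -0.08 to 0.02 and EF1A from -1.90 to -1.60.

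**Figure D4:**
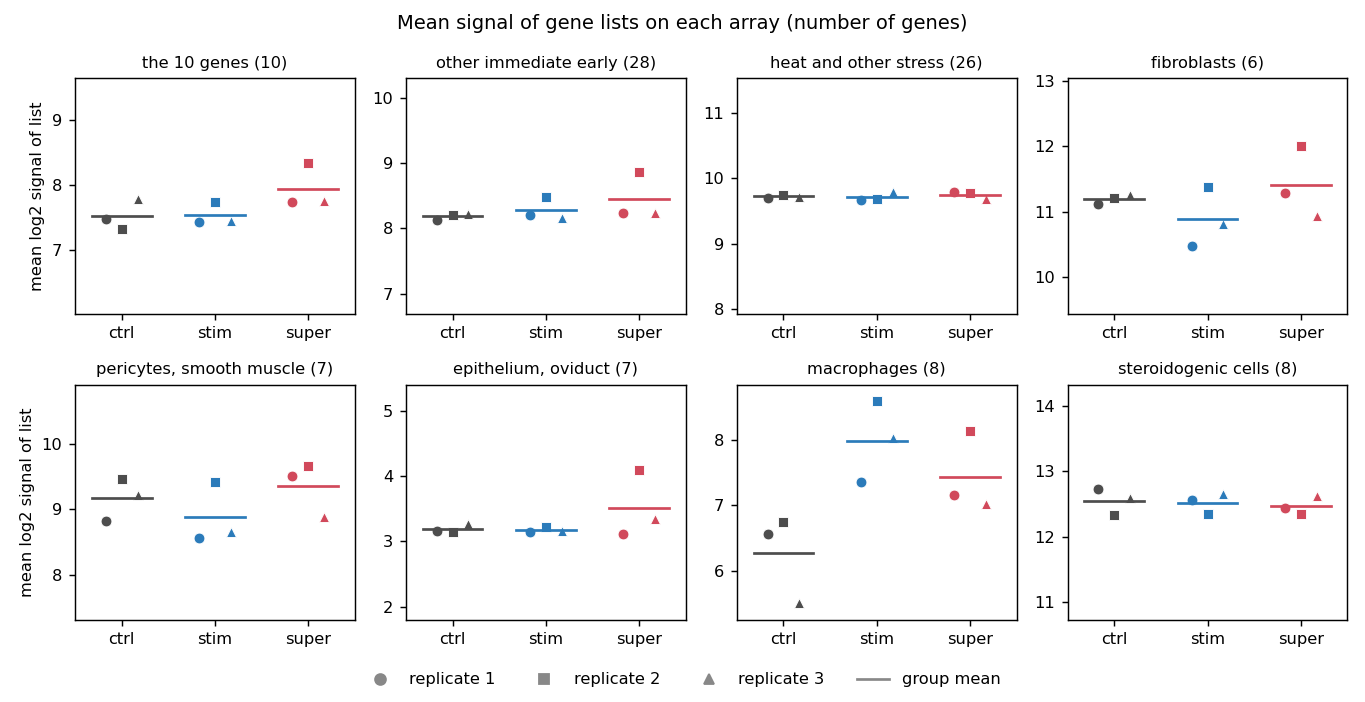
The mean log2 signal of 8 gene lists is plotted for every array, by group, with the marker shape giving the replicate number, a line giving the group mean and each panel spanning the same number of log2 units. Superovulated replicate 2 is the highest array for the 10 genes, the other immediate early genes, the fibroblast, pericyte and epithelial markers, and not for the stress, macrophage or steroidogenic lists.

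Pairs of members were then compared over the 9 animals, 45 pairs in all. With Benjamini-Hochberg adjustment over the pairs 0 correlated at an adjusted p under 0.05, by exact permutation, and 5 had an unadjusted p under 0.05. These 5 all lay among FOS, JUNB, EGR1 and DUSP1. JUNB and DUSP1 had Pearson's r = 0.75 (exact permutation p = 0.0317, adjusted 0.426) and Spearman's rho = 0.63 (p = 0.0760, adjusted 0.810). Without the 2 animals farthest from the median of JUNB, r was 0.62. FOS and DUSP1 had r = 0.75 (exact permutation p = 0.0473, adjusted 0.426) and rho = 0.70 (p = 0.0433, adjusted 0.810), with r = 0.52 without the 2 animals farthest in FOS. FOS and EGR1 had r = 0.73 (exact permutation p = 0.0338, adjusted 0.426) and rho = 0.44 (p = 0.234, adjusted 0.876), with r = 0.38 without the same 2. The remaining pairs, FOS with JUNB and JUNB with EGR1, had r = 0.75 and 0.72.

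Without superovulated replicate 2 these 5 values fell to between 0.22 and 0.44, no pair had an unadjusted p under 0.05 by exact permutation, and the median r of the 45 pairs went from 0.22 to 0.10. Spearman's rho fell less, to 0.57 for FOS and DUSP1, 0.48 for FOS and JUNB and for JUNB and DUSP1, 0.42 for JUNB and EGR1, and 0.20 for FOS and EGR1. The Pearson correlations at an unadjusted p under 0.05 thus rest on that animal. Their number also changed without others. It was 2 without control replicate 2, control replicate 3 or stimulated replicate 2, and 3 without superovulated replicate 3. It was 5 without control replicate 1, 6 without stimulated or superovulated replicate 1, and 7 without stimulated replicate 3. With group means removed it was 3 by permutation within groups, led by JUNB with EGR1 (r = 0.83, p = 0.0185, adjusted 0.625). ATF3 had r = 0.08 with FOS and 0.04 with EGR1, and -0.57 and -0.35 without superovulated replicate 2. Its highest r was with KLF4, at 0.51 (exact permutation p = 0.160, rho = 0.32).

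**Figure D5:**
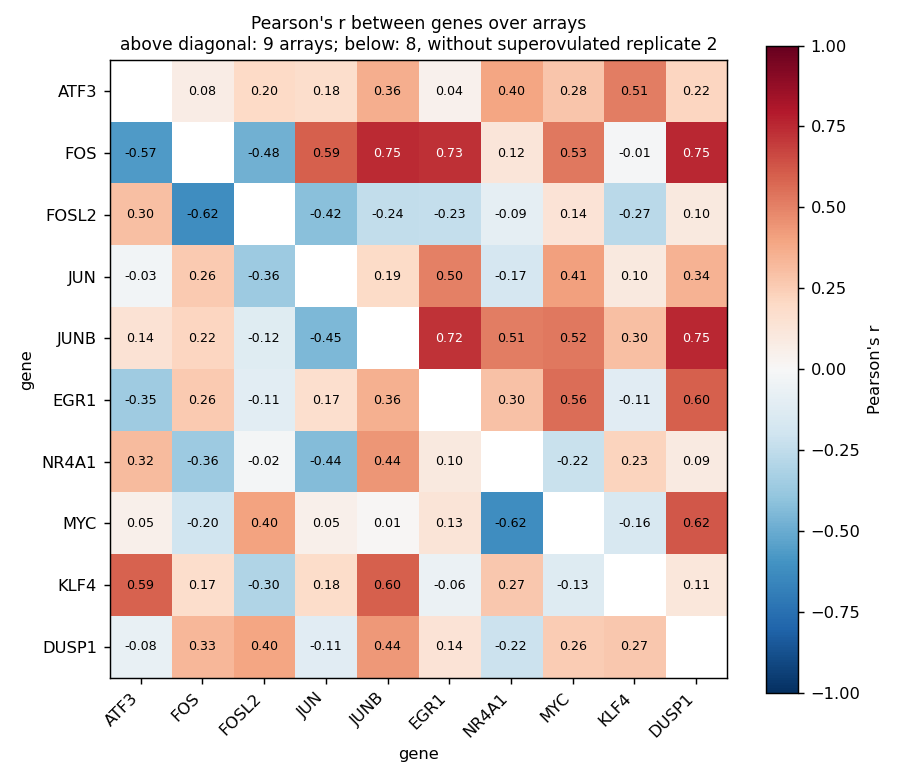
Pearson's r between the signals of each pair of the 10 genes is given in each cell, over all 9 arrays above the diagonal and over 8 arrays, without superovulated replicate 2, below it. The red block that joins FOS, JUNB, EGR1 and DUSP1 above the diagonal is paler below it.

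The rest of the pathway was followed through gene lists that hold none of the 10 members, each gene by its brightest probe set. No gene of any of these lists passed with adjustment by limma in any comparison. Of 17 measured AP-1, CREB/ATF, MAF and C/EBP factors, an unadjusted p under 0.05 was reached by 2 higher and 0 lower genes in stimulated against control animals, 2 and 0 in superovulated against control, and 0 and 1 in superovulated against stimulated animals. Over all genes the corresponding shares in either direction were 7.25%, 5.28% and 9.06%. CEBPD, a factor induced by acute inflammation, had log2 fold changes against control of 0.63 (SE 0.19) in stimulated and 0.72 (SE 0.19) in superovulated animals, with no overlap in either, at adjusted p values of 0.687 and 0.721 by limma. JUND, the constitutive JUN family member, had 0.16 in superovulated against control animals (SE 0.06, adjusted p = 0.801 by limma). ATF5, a stress factor related to ATF4, had 0.69 in stimulated against control (SE 0.29) and -0.68 in superovulated against stimulated animals (SE 0.29). FOSB, the FOS relative, was dim at 2.96 in superovulated and 3.08 in control animals.

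Of the 28 other immediate early genes, that threshold was reached by 0 higher genes and 1 lower gene in stimulated against control animals, 0 and 1 in superovulated against control, and 2 and 1 in superovulated against stimulated animals. KLF10, induced by TGF-beta, had -0.33 in stimulated against control animals (SE 0.12, adjusted p = 0.716 by limma) and 0.45 in superovulated against stimulated animals (SE 0.12, adjusted p = 0.371). NFKBIA, the inhibitor of NF-kappa B, had 0.94 (SE 0.42, adjusted p = 0.782 by limma) in stimulated against control animals. ID2 had -0.23 (SE 0.09) in superovulated against control animals. GADD45B had -0.53 in superovulated against stimulated animals (SE 0.16, adjusted p = 0.431 by limma). The median of this list in superovulated against control animals was 0.20 with 22 of 28 positive, and 0.03 with 15 positive without superovulated replicate 2. Over all genes the median was 0.01 and 53.2% were positive. That animal was the highest for 17 of the 28 genes, so leaving it out was bound to lower their values.

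Of 7 other dual-specificity phosphatases, the relatives of DUSP1, 0 had an unadjusted p under 0.05 against control in either treated group. DUSP23 had 0.67 in superovulated against stimulated animals (SE 0.27), the 1 such value. The list's medians were -0.01, 0.08 and -0.05 in stimulated against control, superovulated against control and superovulated against stimulated animals. The latter pair were -0.14 and -0.12 without superovulated replicate 2, and 2 of 7 genes in place of 4 were positive against control.

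Of 27 genes of the MAP kinase and serum response factor pathway, which carry the signal to FOS and EGR1, 0 had an unadjusted p under 0.05 in stimulated against control animals. MAPK8, which encodes the JNK1 kinase of JUN, had -0.33 in superovulated against control (SE 0.14, adjusted p = 0.801 by limma) and -0.35 in superovulated against stimulated animals (SE 0.14). MAPKAPK3, a kinase downstream of p38, had 0.62 in superovulated against stimulated animals (SE 0.16, adjusted p = 0.371 by limma). The medians of the list were -0.03, 0.05 and 0.05.

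Of 26 genes of the heat shock, integrated stress and oxidative stress responses, in which ATF3 also takes part, 0 had an unadjusted p under 0.05 in any of the 3 comparisons by limma. The medians were -0.02, 0.01 and -0.01, the middle one being -0.04 without superovulated replicate 2, and the list's mean per array ran from 9.67 to 9.80 over all 9 animals. The nearest were TRIB3, a pseudokinase induced with ATF3 by amino acid stress, at -0.26 in stimulated against control animals (SE 0.12, adjusted p = 0.783 by limma), and HSPB8, a small heat shock protein, at 1.3 in superovulated against stimulated animals (SE 0.58, adjusted p = 0.529 by limma). EIF2AK3, the kinase PERK of the unfolded protein response, had 0.37 in superovulated against control animals (SE 0.19, adjusted p = 0.818 by limma), with no overlap between the groups.

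Of 13 partners, antagonists and regulators of MYC, it was reached by 1 higher gene and 0 lower genes in stimulated against control animals, 0 and 1 in superovulated against control, and 0 and 2 in superovulated against stimulated animals. FBXW7, the ubiquitin ligase subunit that marks MYC for degradation, had 0.64 in stimulated against control (SE 0.26) and -0.79 in superovulated against stimulated animals (SE 0.26, adjusted p = 0.451 by limma). MYCBP2, a large ubiquitin ligase that binds MYC, had -0.39 in superovulated against control (SE 0.12, adjusted p = 0.781 by limma) and -0.45 in superovulated against stimulated animals (SE 0.12). All 13 log2 fold changes of superovulated against control animals were negative, between -0.56 and -0.03, with a median of -0.15, and 0 were positive without superovulated replicate 2 as well. The genes are not independent, so this count carries no test.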

How the data were processed

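The authors deposited 1 value table of 24128 probe sets on 9 arrays, whose numbers have lost their decimal mark. As deposited they are a score in no unit, and per the labels' protocols biotinylated cRNA was hybridised to Affymetrix arrays. Their normalisation, summarisation and log base: not given in the sources used here. Its place was recovered from the digits. Runs starting with 1 were open to 2 readings (15.5% of cells) and were settled by the other arrays of the probe set, or by its mean level and spread at a posterior probability of 0.95. Of the probe sets 90 that are not array controls stayed undecided and were left out. The recovered values, 0.85 to 15.36, are read as log2 signals. Among the members, DUSP1 and the brightest JUN probe set had open runs on all 9 arrays and were read as bright with posteriors of 0.993 and 0.994. These posteriors are not independent of that reading. Every probe set open on all 9 arrays was counted as bright when the frequency of bright levels was set. An identical value on 2 arrays occurs in 37.0% of probe sets.

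Each probe set was fitted with limma 3.58.1 (R 4.3.3), 1 mean per group on all 9 arrays, 6 residual degrees of freedom, 2-sided tests and Benjamini-Hochberg adjustment over 23926 probe sets. The limma fit and the permutation test were tried on simulated data, and the recovery of the decimal mark was not. SE and intervals come from the moderated fit, SD from the 3 animals. Precision is limited by the 9 arrays. Member pairs were tested by exact permutation over animals, 2-sided (scipy 1.17.1, numpy 2.4.6). The labels number the animals alike in each group. Same-numbered stimulated and superovulated arrays had correlations of 0.20, 0.38 and 0.15 between their deviations from the group means. Those with different numbers had -0.26 to 0.08. Deviations from a group mean cancel over its 3 arrays, so these correlations are not independent. The labels state no link and a pairing was not tested, so the main fit takes the arrays as unpaired. Alternatives were quantile normalisation, a filter on dim probe sets, probe sets with no open run, another variance model, a replicate block, 2 groups alone, the mean of a gene's probe sets, and leaving out each array. Genes are named by the array's annotation, unchecked against a genome. The text names all 10 members, up to 4 genes per list and comparison with the smallest p, and the 3 genes most like a member. The members and lists were chosen with earlier results of these data known. ID2 and GADD45B beside superovulated replicate 2, and the other genes named there, were chosen after their values were seen.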

Additional observations from a re-analysis of the deposited data

How the results depend on the processing

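None of the 810 alternative values of the members passed, and their smallest adjusted p was 0.221, that of ATF3 between superovulated and stimulated animals in the fit with a replicate block. The sign changed in 38 of the 810, all of them values with an unadjusted p over 0.05. Of the 3 comparisons' counts of passing probe sets, that of stimulated against control was 1, and 3 with the replicate block. It ranged from 0 to 4 leaving out 1 array, which was 2 without control replicate 2, while leaving out superovulated replicate 3 gave 4 and stimulated replicate 3 gave 0. That of superovulated against control was 0, 1 with the arrays of those 2 groups alone, and 0 to 1 leaving out 1 array, the 1 being without stimulated replicate 3. That of superovulated against stimulated was 1, 2 with quantile normalisation, 2 when every probe set with an open run was left out, and 1 to 3 leaving out 1 array (3 without superovulated replicate 1, 2 without stimulated or superovulated replicate 3). The F test gave 1, and 1 to 2 leaving out 1 array (2 without stimulated or superovulated replicate 3). The cause was not tested. None of these was a member. Same-numbered arrays of control and treated animals did not all deviate together, with correlations of -0.03 to 0.35. Control replicate 1 was closest to superovulated replicate 3, at 0.25. For those comparisons too the numbers are not taken as pairs in the main fit. With the replicate block, superovulated against stimulated gave 1 and no member's call changed in any comparison. The count of correlated pairs of members was 0 in every alternative run. With group means removed this was nearly fixed in advance. Permutation within groups gives no p under 0.00463, so a single pair could not pass adjustment over 45 pairs. Dim probe sets, among them those of FOSL2 and the second of EGR1, limit what could be seen.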
